A study of Homo sapiens with 6 samples.

Results

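The RUNX transcription factors and their shared partner CBFB were followed in A673, a human cell line grown from a Ewing sarcoma. The members are the 4 rows of the deposited table with the gene names RUNX1, RUNX2, RUNX3 and CBFB, out of 62700 rows. All 4 were among the 28485 genes that passed the filter on low counts. EWS-FLI1, which joins EWSR1 to the DNA-binding part of the ETS factor FLI1, is carried by these tumour cells, and the series asked how this fusion affects the transcriptome and splicing. Both groups are A673 cells in DMEM with fetal bovine serum. The first holds 3 libraries labelled parental control, with an EWS-FLI1 wildtype genotype, and the second holds 3 libraries labelled EWS-FLI1 knockout. The labels do not say how the knockout was made, whether it is 1 clone or a pool, or whether replicates were separate cultures. A difference between clones and the loss of the fusion therefore cannot be told apart, and p-values refer only to variation among these libraries, part or all of which may be technical.

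RUNX proteins bind DNA through the Runt domain and can activate or repress transcription depending on their partners. CBFB binds no DNA itself. It joins the Runt domain, raises its affinity for DNA and protects the RUNX protein from degradation, so each RUNX factor works as a heterodimer called core-binding factor. RUNX1 is required for the first blood stem cells, RUNX2 for bone formation, and RUNX3 acts in cytotoxic T cells, sensory neurons and gastric epithelium. Earlier work has described binding of EWS-FLI1 to RUNX2 and a growth-supporting role of RUNX3 in Ewing sarcoma cells.

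Library totals ranged from 301605666 to 342624492 estimated counts. Levels are CPM, which relate a count to the library total after TMM scaling, and are means ± SD of 3 libraries. Positive log2 fold changes mean a higher knockout level. Their standard errors (SE) were derived from the edgeR test, as the absolute log2 fold change divided by the square root of its F statistic. EWSR1 held 293 ± 6.20 CPM in parental and 245 ± 6.21 in knockout libraries. FLI1 held 40.7 ± 1.15 and 53.1 ± 2.11 CPM, a log2 fold change of 0.38 that becomes -0.04 with total counts only. Counts per gene add fusion and normal transcripts, so neither gene checks the labels. All 8 Ewing sarcoma markers (CD99, NKX2-2, NR0B1, STEAP1, PRKCB, CCND1, CAV1 and BCL11B) were expressed in parental libraries and fell in the knockout, where their median change was -2.91 (log2). The summed level of 7 tested blood cell markers lay between 18.2 and 21.8 CPM in parental libraries, and in the knockout between 13.6 and 15.3. None of the 11 blood cell markers in the table was at 0 in every library, but CD3E never exceeded 3.0 estimated counts. Of those tested 3 rose, 3 fell and 1 did not pass. The B cell gene CD79A went from 13.0 ± 1.23 to 0.265 ± 0.0740 CPM and the globin HBA1 from 1.26 ± 0.106 to 0.114 ± 0.0433. The macrophage gene CD68 went from 5.07 ± 0.506 to 12.2 ± 0.822 CPM and the pan-leukocyte gene PTPRC from 0.127 ± 0.0272 to 1.49 ± 0.157. The summed level of 5 endothelial markers lay between 0.601 and 0.730 CPM and between 8.47 and 9.40 CPM, nearly all of the latter from PECAM1. Their part in the results below was not tested.

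RUNX1 and RUNX2 were much higher in the knockout libraries, CBFB was lower, and the level of RUNX3 depended on the scaling. In the edgeR fit 2 members rose, against 36.3% of all tested genes, 1 fell, against 37.5%, and 1 did not pass. Changes were this common across the whole table, 73.8% of tested genes in either direction, so the members are described below by the size of their change and by their ratios to each other. A log2 fold change of at least 3 was reached by 8.26% of tested genes, among them RUNX1 and RUNX2, and a fall of 1 or more by 20.3%, among them CBFB.

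**Figure D1:**
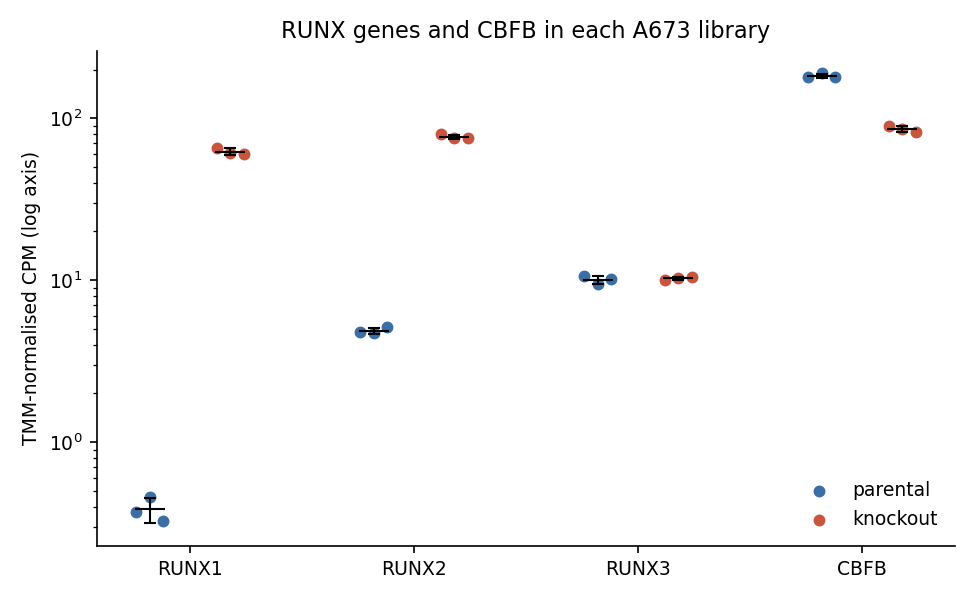
TMM-normalised CPM of RUNX1, RUNX2, RUNX3 and CBFB on a log axis, with 1 point per library and black bars for mean ± SD of 3 libraries. Parental and knockout points lie apart for RUNX1, RUNX2 and CBFB and overlap for RUNX3 near 10.1 to 10.3 CPM.

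RUNX1, the blood stem cell factor, spans chr21:34787801-35049302 on the minus strand (GRCh38). It held 141.4, 173.4 and 129.5 estimated counts in the parental libraries and 16777.6, 15912.4 and 16546.6 in the knockout libraries. On the CPM scale these were 0.370, 0.458 and 0.323 against 65.6, 61.4 and 60.0. Every knockout library lay far above every parental one, and the parental libraries differed from each other more, in proportion, than the knockout libraries did. This gave a log2 fold change of 7.35 (SE 0.092; adjusted p = 4.19e-22 in edgeR), a 163-fold difference in level. Only 277 of the 28485 tested genes, 0.972%, had a log2 fold change as high as that of RUNX1 or higher, RUNX1 included.

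The parental level of RUNX1 is close to the lowest level that an abundant knockout gene shows in these parental libraries. Among 3251 genes with at least 20000 counts on average in knockout libraries, the 20 with the lowest parental counts kept between 0.530% and 0.618% of the knockout count, with a median of 0.586%. RUNX1 kept 0.902%. Subtracting the median share from each parental library left 45.2, 77.2 and 33.3 estimated counts and gave a log2 fold change of 8.86 (edgeR adjusted p = 1.44e-08). How much of the parental RUNX1 count was made by parental cells was not tested, so 163-fold is a value for these libraries and not for the cells.

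RefSeq promoter sequences (GRCh38.p14) were matched for 3 members: 1 window of RUNX1, 2 of RUNX2 and 2 of RUNX3. The distal RUNX1 promoter and CBFB had no matching window and are not shown. RUNX genes are transcribed from a distal promoter, P1, and a proximal promoter, P2, which give proteins with different N-termini. A count per gene adds both, so the data do not say which promoter was used. The 250 bases before the RUNX1 P2 start (chr21:34888700-34888949, minus strand) are shown because this gene had the largest change. Capitals mark the letters GGAATG, the core bound by TEAD factors, at position -53 from the start.
RUNX1 P2: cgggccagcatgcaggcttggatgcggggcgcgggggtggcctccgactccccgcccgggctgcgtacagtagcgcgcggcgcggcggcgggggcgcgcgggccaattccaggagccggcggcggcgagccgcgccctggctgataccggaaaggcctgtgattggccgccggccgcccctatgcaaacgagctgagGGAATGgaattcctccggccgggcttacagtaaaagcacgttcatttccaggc

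Windows were searched on both strands from 250 bases before to 50 bases after the start for TGTGGT and TGCGGT (RUNX), GGAA (ETS), GGAAGGAA (the ETS repeat that EWS-FLI1 is known to bind), TGANTCA (AP-1) and GGAATG (TEAD, which overlaps the ETS core GGAA). The RUNX1 P2 window held 6 copies of GGAA and 1 of GGAATG, and no match to the others. GGAATG was not particular to RUNX1: its reverse, CATTCC, lay in the RUNX2 P2 window at position -41 and in the RUNX3 P1 window at position 8. Of 35116 RefSeq windows of this length, 95.5% held GGAA and 4928 windows held GGAATG. GGAAGGAA occurred in 3.67% of all windows and in none of the 5 member windows. A match describes letters in a window and is not evidence of binding.

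RUNX2, the bone factor, spans chr6:45328330-45551082 on the plus strand. It held 1834.0, 1781.0 and 2044.0 estimated counts in parental and 20339.1, 19565.6 and 20920.1 in knockout libraries. The CPM values were 4.82, 4.71 and 5.13 against 79.6, 75.5 and 75.9. The groups did not overlap, as in 76.7% of tested genes, and the spread within each group was a few percent. This gave a log2 fold change of 3.98 (SE 0.057; adjusted p = 4.89e-24 in edgeR), a 15.8-fold difference, and 5.67% of tested genes had one as high or higher. Unlike RUNX1, RUNX2 was well detected in the parental libraries, which held 9.30% of its mean knockout count, and the subtraction moved its log2 fold change only to 4.07.

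The distal promoters of RUNX2 and RUNX3 are shown because both carry the core sequence bound by the RUNX factors themselves. Capitals mark ACCACA, which is TGTGGT read on the other strand, and in RUNX2 also the AP-1 match TGAGTCA at position -243. The windows are chr6:45328080-45328329 on the plus strand and chr1:24965011-24965260 on the minus strand.
RUNX2 P1: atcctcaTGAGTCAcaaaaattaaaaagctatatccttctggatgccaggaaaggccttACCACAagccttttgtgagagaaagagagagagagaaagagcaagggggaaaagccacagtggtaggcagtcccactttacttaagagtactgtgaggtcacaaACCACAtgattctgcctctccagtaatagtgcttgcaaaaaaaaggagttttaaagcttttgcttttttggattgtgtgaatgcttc
RUNX3 P1: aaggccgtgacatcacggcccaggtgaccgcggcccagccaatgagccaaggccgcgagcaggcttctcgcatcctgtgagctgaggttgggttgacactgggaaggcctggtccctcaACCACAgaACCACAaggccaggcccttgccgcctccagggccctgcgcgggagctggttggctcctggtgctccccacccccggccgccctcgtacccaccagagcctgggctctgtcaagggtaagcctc

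The RUNX2 P1 window held 4 copies of TGTGGT or its reverse, at positions -191, -87, 17 and 25, and the RUNX3 P1 window held 2, at -131 and -123. At least 1 copy occurred in 13.1% of all windows, at least 2 in 1.31%, and at least 4 in 5 windows of 35116. Both windows share an identical run of 18 bases that holds a close pair of the motif, found at position 15 after the RUNX2 start (chr6:45328344-45328361) and at position -133 before the RUNX3 start (chr1:24965126-24965143). The RUNX3 start used, chr1:24965010, lies inside the annotated RUNX3 span of chr1:24899511-24965138. Positions before or after a start hold only for the starts used here.
Shared run: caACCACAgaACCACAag
In the whole set of 35116 windows this run occurred in 2, those of RUNX2 and RUNX3. The set held no window of the distal RUNX1 promoter, so whether that promoter carries the run was not tested. In RUNX2 the run is followed directly by a copy of TGCGGT at position 33. No TGTGGT or TGCGGT match lay in the P2 windows of RUNX1, RUNX2 and RUNX3. Over the genes of these data, TGTGGT occurred in 10.5% of windows of risen genes, 10.6% of fallen genes and 13.2% of genes that did not pass, and in 11.7% of windows of risen genes with a log2 fold change of at least 3. These sets also differ in base composition, with median GC contents of 64.7%, 63.0%, 61.3% and 61.0% in that order.

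RUNX3 spans chr1:24899511-24965138 on the minus strand. It held 4025.3, 3580.1 and 4057.7 estimated counts in parental and 2573.8, 2663.3 and 2896.8 in knockout libraries, so all 3 raw knockout counts were lower. After TMM scaling the parental levels were 10.6, 9.47 and 10.2 CPM, the knockout levels were 10.1, 10.3 and 10.5, and the groups overlapped. The log2 fold change of 0.03 (SE 0.061) did not pass (edgeR adjusted p = 0.672). Scaled by total count only, RUNX3 passed as lower at -0.39 (edgeR adjusted p = 4.62e-05), and with upper quartile factors at -0.17 (edgeR adjusted p = 0.0153). Total count scaling lowered the median of all genes by 0.42 on the log2 scale, so RUNX3 stayed near the median gene under either scaling.

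CBFB spans chr16:67029149-67101058 on the plus strand. It held 68575.8, 71746.4 and 71745.4 estimated counts in parental and 22779.0, 22338.6 and 22682.0 in knockout libraries. The CPM values were 180.1, 189.9 and 179.9 against 89.1, 86.2 and 82.3. Each knockout value was under each parental value, and the gap was many times the spread within groups. This gave a log2 fold change of -1.09 (SE 0.050; adjusted p = 7.01e-15 in edgeR), a level 2.13-fold lower, and 19.3% of tested genes fell as far or further. CBFB fell while RUNX1 and RUNX2 rose under each scaling tried, with CBFB log2 fold changes between -1.07 and -1.52. In bulk RNA, fewer cells that express a gene and less RNA per cell cannot be told apart.

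Levels of different genes can be compared only per length. CPM were divided by the longest protein-coding transcript of the GENCODE 29 basic set, 7274 bases for RUNX1, 5698 for RUNX2, 4340 for RUNX3 and 3136 for CBFB. In parental libraries the order was CBFB at 58.5 ± 1.81 CPM per kilobase, RUNX3 at 2.32 ± 0.128, RUNX2 at 0.857 ± 0.0376 and RUNX1 at 0.0528 ± 0.00937 (SD, n = 3). In knockout libraries it was CBFB at 27.4 ± 1.09, RUNX2 at 13.5 ± 0.393, RUNX1 at 8.57 ± 0.402 and RUNX3 at 2.37 ± 0.0509. Neighbours in each order differed by more than their spread over libraries. Dividing by all exon bases of a gene left both orders in place, although it lowered RUNX1 to 0.0246 CPM per kilobase in parental libraries and to between 3.85 and 4.21 in knockout libraries.

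RUNX3 made up 71.8% ± 1.13 of the summed RUNX level per kilobase in parental libraries, RUNX2 26.5% ± 1.04 and RUNX1 1.64% ± 0.362. In knockout libraries RUNX2 made up 55.3% ± 0.229, RUNX3 9.70% ± 0.478 (SD, n = 3) and RUNX1 35.7%, 35.1% and 34.4% in the single libraries. The leading RUNX transcript was therefore RUNX3 in each parental library and RUNX2 in each knockout library. The sum of the RUNX levels was 3.23 ± 0.139 CPM per kilobase in parental and 24.5 ± 0.740 in knockout libraries. Divided by CBFB in the same library, this sum was 0.0580, 0.0508 and 0.0573 in parental and 0.891, 0.875 and 0.914 in knockout libraries. With exon lengths the means of this ratio were 0.0643 ± 0.00485 and 0.754 ± 0.0185. RUNX transcripts were thus rare beside CBFB transcripts in parental libraries and nearly as abundant in knockout libraries. Transcripts in use may be shorter than those assumed, and protein levels were not measured.

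**Figure D2:**
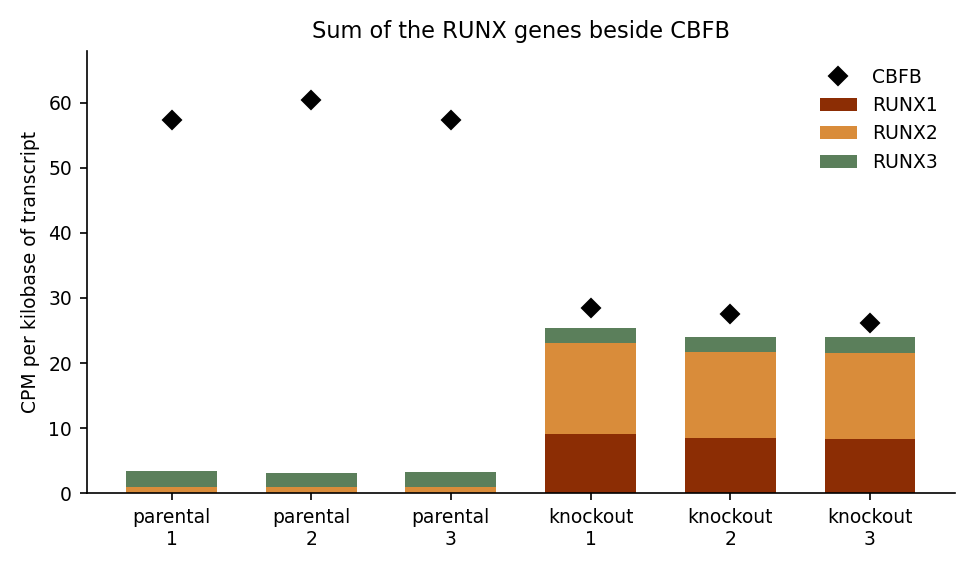
CPM per kilobase of the longest coding transcript in each library, with RUNX1, RUNX2 and RUNX3 stacked as bars and CBFB as a black diamond. The stacks reach 3.07 to 3.33 in parental libraries and up to 25.3 in knockout libraries, while CBFB goes from 57.4 to 60.5 down to 26.2 to 28.4.

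A ratio of 2 genes within a library does not depend on the scaling between libraries, and gene length cancels in the difference between groups. All 6 pairs of members were compared in this way with a two-sided exact permutation test, whose smallest possible p for 3 against 3 libraries is 0.1. The log2 ratio of RUNX1 to CBFB rose from -8.91 ± 0.211 in parental to -0.46 ± 0.025 in knockout libraries, a difference of 8.45 (SE 0.123). That of RUNX2 to CBFB differed by 5.07 (SE 0.061) and that of RUNX3 to CBFB by 1.13 (SE 0.087). Each RUNX gene, RUNX3 included, was therefore higher relative to CBFB in all 3 knockout libraries than in any parental library. CBFB itself fell, and 80.7% of tested genes had a log2 fold change as high as that of CBFB or higher. A rise relative to CBFB is thus common among tested genes and not particular to RUNX3. Among the RUNX genes themselves, RUNX1 to RUNX3 differed by 7.32 (SE 0.190), RUNX2 to RUNX3 by 3.95 (SE 0.061) and RUNX1 to RUNX2 by 3.38 (SE 0.180). The groups did not overlap in any of the 6 ratios, and each gave the exact permutation p = 0.1, adjusted p = 0.1, which cannot pass 0.05. Groups did not overlap in 76.7% of single tested genes, and the share over other pairs of genes was not computed. With the share described for RUNX1 subtracted, RUNX1 to RUNX2 differed by 4.87, RUNX1 to RUNX3 by 8.92 and RUNX1 to CBFB by 10.06.

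**Figure D3:**
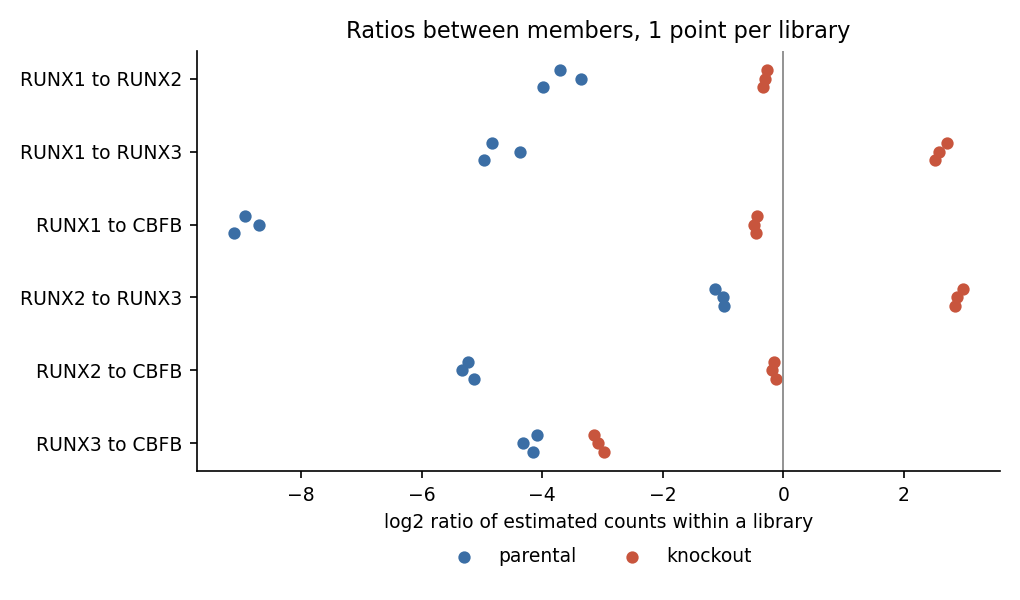
Log2 ratio of the estimated counts of each pair of members within a library, on the horizontal axis, with 1 point per library. For RUNX1 to RUNX3 and RUNX2 to RUNX3 the parental points lie below 0 and the knockout points above 0; for the 3 ratios to CBFB all points lie below 0.

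RUNX factors act with corepressors and coactivators. Over all tested genes 36.3% rose and 37.5% fell, and the counts of this and each later list are to be read beside these shares. Among 17 corepressor genes 10 fell and 6 rose, and 1 did not pass. Their median log2 fold change was -0.29, beside -0.06 for all tested genes. TLE2, a Groucho protein that binds the C-terminus of RUNX proteins, fell by 3.17 on the log2 scale (SE 0.063), from 128 to 14.3 CPM, while its relative TLE4 rose by 1.00 (SE 0.047). CBFA2T3, of the ETO family, fell by 1.83 (SE 0.064). CBFA2T2, of the same family, rose by 0.77 (SE 0.051). The histone deacetylase HDAC4 fell by 0.97 (SE 0.057). RUNX1T1, which becomes fused to RUNX1 in acute myeloid leukaemia, is among the 6 risen genes (2.51, SE 0.475) but held at most 39.1 estimated counts in any library. Of 9 coactivators 4 rose, 2 fell and 3 did not pass, but with total counts only 1 rose and 5 fell. WWTR1, the Hippo effector TAZ and a coactivator of RUNX2, rose by 2.15 (SE 0.050), from 80.3 to 356 CPM. YAP1 held 199.6 ± 4.76 and 193.6 ± 12.9 CPM and did not pass (edgeR adjusted p = 0.461). The acetyltransferase KAT6A and the methyltransferase PRMT1 fell, with log2 fold changes of -0.51 (SE 0.065) and -0.75 (SE 0.052). CREBBP rose by 0.46 (SE 0.063) but did not pass with total counts only, at 0.04.

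Transcription factors that bind DNA together with RUNX proteins moved in both directions. Among 31 tested partner genes 17 rose and 9 fell, 5 did not pass, and the median was 0.29. With total counts only 14 rose and 15 fell, and the median becomes -0.14. ETS1, which binds beside RUNX1 and relieves its autoinhibition, went from 0.485 ± 0.00425 to 120 ± 5.69 CPM (7.95, SE 0.072). VDR, the vitamin D receptor that acts with RUNX2 on bone genes, went from 0.695 ± 0.00577 to 131 ± 6.25 CPM (7.56, SE 0.070). The blood partner LMO2 went the other way, from 121 ± 5.25 to 1.23 ± 0.107 CPM (-6.62, SE 0.072). DLX5, a homeobox factor that activates RUNX2 in osteoblasts, fell from 75.9 ± 3.00 to 0.910 ± 0.0254 CPM (-6.38, SE 0.068), so it was low in the libraries in which RUNX2 was high. SPI1, a myeloid ETS partner of RUNX1, held 0.169 ± 0.0275 and 0.160 ± 0.0248 CPM and did not pass (edgeR adjusted p = 0.796). In its lower group ETS1, VDR, LMO2 and DLX5 kept 0.591%, 0.777%, 0.694% and 0.820% of the raw count of the other genotype, near the shares of the most depleted abundant genes, so their true lower levels were not determined.

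Of 19 kinases, ubiquitin ligases and other modifiers of RUNX proteins 11 rose and 8 fell, and their median was 0.13. With total counts only 8 rose and 10 fell, with a median of -0.29. CDK6, a cell cycle kinase known to bind RUNX1, rose from 2.44 ± 0.0916 to 199.9 ± 23.0 CPM (6.36, SE 0.089). The kinase PIM1, which phosphorylates RUNX proteins, rose by 3.94 (SE 0.055). SMURF2 and WWP1, ubiquitin ligases that mark RUNX proteins for degradation, rose by 1.39 (SE 0.050) and 1.11 (SE 0.058).

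**Figure D4:**
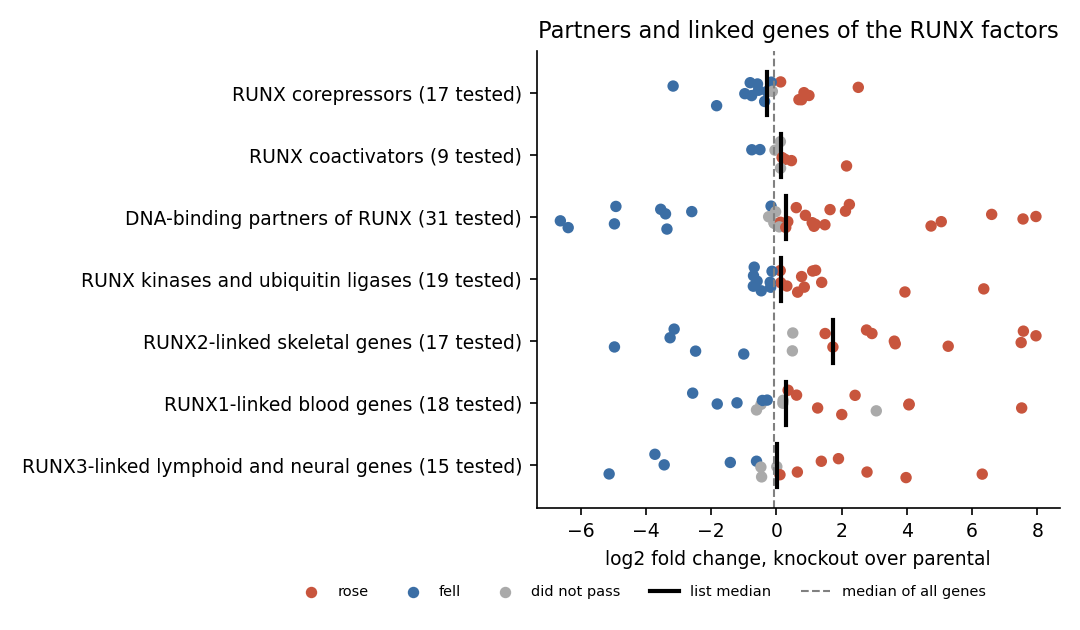
Log2 fold change, knockout over parental, of each tested gene in 7 lists, with red for genes that rose, blue for genes that fell and grey for genes that did not pass. Black bars are list medians and the dashed line is the median of all tested genes at -0.06; the skeletal list has its median at 1.73.

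Skeletal genes known to respond to RUNX2 were compared next. Of 22 listed genes 17 were tested: 10 rose, 5 fell, 2 did not pass, and the median was 1.73. Genes that rose included the collagen chains COL1A1 (7.57, SE 0.062) and COL1A2 (7.96, SE 0.065), whose parental counts were 0.771% and 0.590% of the knockout counts. The matrix protein SPARC rose by 5.27 (SE 0.056), from 106 to 4070 CPM. TNFRSF11B, the decoy receptor osteoprotegerin, rose from 0.05 ± 0.00948 to 9.15 ± 0.175 CPM (7.50, SE 0.13), and ALPL, alkaline phosphatase, from 52.7 ± 1.74 to 148 ± 5.93 CPM. The parental count of TNFRSF11B was 0.807% of its knockout count, near the shares of the most depleted abundant genes. Other genes of osteoblasts and mineralised matrix, all at low levels, moved in both directions or did not pass. SPP1 (osteopontin) rose from 0.189 ± 0.0114 to 1.28 ± 0.846 CPM, and PHEX, a peptidase of mineralising bone, from 0.180 ± 0.0352 to 1.37 ± 0.137 CPM. SP7, the osteoblast factor downstream of RUNX2, fell from 0.142 ± 0.0258 to 0.0252 ± 0.0173 CPM, BGLAP (osteocalcin) held 0.183 ± 0.0422 and 0.260 ± 0.0590 CPM and did not pass (edgeR adjusted p = 0.0705), and IBSP (bone sialoprotein) held at most 2.0 estimated counts in a library. DMP1, MEPE, IHH and TNFSF11 were also below the filter. FGFR2 and FGFR3, receptors of the growth plate, fell, with log2 fold changes of -4.96 (SE 0.165) and -3.13 (SE 0.085). Also risen were VEGFA, from 176 ± 6.90 to 586 ± 62.3 CPM, and, at low levels, COL10A1 (3.61, SE 0.176) and GALNT3 (3.64, SE 0.215). MMP9 and PTH1R also fell, at low levels.

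Blood genes linked to RUNX1 moved in both directions, as did all tested genes, of which 36.3% rose and 37.5% fell. Of 20 listed genes 18 were tested and 8 rose, 5 fell and 5 did not pass, and 6 averaged at least 1 CPM. With total counts only 6 rose and 7 fell, and the median of 0.28 becomes -0.14. CSF2, the growth factor GM-CSF, rose from 0.0234 ± 0.00313 to 4.35 ± 0.147 CPM (7.52, SE 0.16), while the platelet genes ITGA2B and GP1BA fell, with log2 fold changes of -2.57 (SE 0.15) and -1.21 (SE 0.10). The parental count of CSF2 was 0.786% of its knockout count, near the shares of the most depleted abundant genes. Its true parental level was not determined. MYH10, a myosin that RUNX1 silences in maturing megakaryocytes, fell by 0.28 (SE 0.055), from 393 to 323 CPM.

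Of 18 genes linked to RUNX3, 15 were tested, with 7 risen, 5 fallen and 3 not passing, and a median of 0.01 (-0.41 with total counts only, where 6 rose and 9 fell). BCL2L11, the cell death gene BIM, rose from 5.95 ± 0.0849 to 93.5 ± 3.41 CPM (3.97, SE 0.055). NTRK3 (TrkC), a neurotrophin receptor of the sensory neurons that depend on RUNX3, rose by 6.31 (SE 0.12). The Notch ligand JAG1 rose by 1.90 (SE 0.052). Among lymphoid genes of the list, ZBTB7B fell from 50.1 ± 3.86 to 32.8 ± 0.545 CPM. CD8A, PRF1 and TBX21 also fell, at low levels, with log2 fold changes of -1.41 (SE 0.569), -3.44 (SE 0.495) and -3.72 (SE 0.591). CD4 rose from 0.720 ± 0.0675 to 1.87 ± 0.342 CPM and CCR7 from 0.110 ± 0.0153 to 0.754 ± 0.249 CPM. The T cell genes IFNG and GZMB held at most 1.0 estimated count in any library. All these lists name genes tied to a RUNX factor in other tissues, and none shows that a RUNX factor acted on them here.

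RUNX genes lie in matching stretches of 3 chromosomes, each beside an RCAN and a CLIC gene. Of these 6 neighbours 5 were tested. RCAN1, beside RUNX1, rose by 2.48 (SE 0.055), from 7.69 to 43.0 CPM, and CLIC6, the next tested gene to RUNX1, averaged 11.2 and 4.3 estimated counts and did not pass (edgeR adjusted p = 0.343). RCAN2, beside RUNX2, rose but reached only 0.0673 ± 0.0162 CPM, and CLIC5 held at most 4.0 counts. Near RUNX3, CLIC4 rose by 1.57 (SE 0.052) to 950 ± 44.6 CPM, and RCAN3 fell by 1.76 (SE 0.076).

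The 3 nearest tested protein-coding genes on each side gave 24 neighbours, of which 9 rose, 9 fell and 6 did not pass, near the background of 73.8% called. No nearest neighbour of RUNX1 changed as much as RUNX1: besides RCAN1, the largest was CBR3 at 1.48 (SE 0.061). The nearest tested genes on either side of RUNX2 were CDC5L, 877.9 kb away, which fell by 0.18 (SE 0.051), and ENPP4, 578.9 kb away, which fell by 2.24 (SE 0.245). Farther out, TMEM151B, at 1048.9 kb, fell by 4.24 (SE 0.077), while SLC25A27, at 1101.9 kb, rose by 5.11 (SE 0.34) to only 0.519 ± 0.167 CPM. Beside CBFB, the carboxylesterases CES3 and CES4A fell, with log2 fold changes of -3.64 (SE 0.098) and -3.04 (SE 0.241), and B3GNT9 rose by 1.93 (SE 0.057). SUPT3H, a SAGA complex subunit on the opposite strand, overlaps the start of RUNX2 and fell from 12.8 ± 0.0521 to 9.32 ± 0.641 CPM. Its annotated exons share 0 bases with those of RUNX2 in GENCODE 29. Of the antisense genes, RUNX3-AS1 held at most 7.0 and RUNX2-AS1 at most 21.0 estimated counts in a library, and neither was tested.

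**Figure D5:**
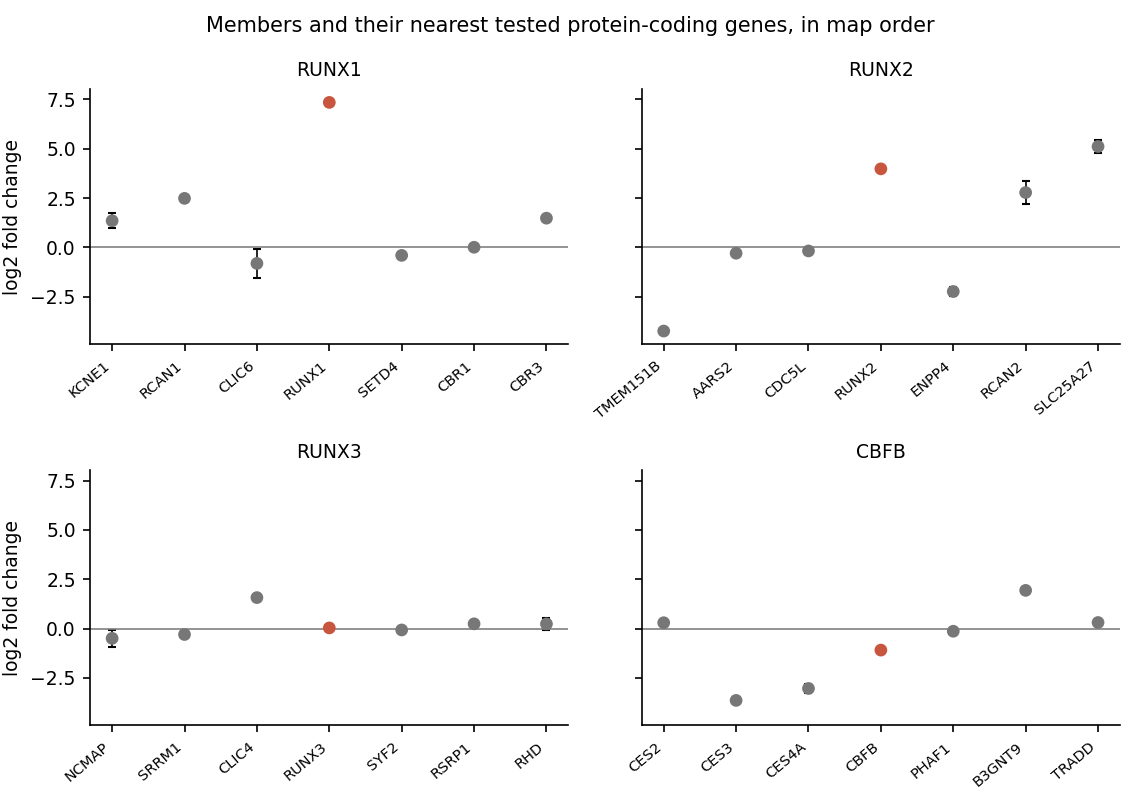
Log2 fold change with SE bars for each member (red) and its 3 nearest tested protein-coding genes on each side (grey), in map order within each panel. RUNX1 at 7.35 stands above its neighbours, while SLC25A27 at 5.11 exceeds RUNX2 at 3.98.

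Genes with the most similar pattern over the 6 libraries were found by the root mean square difference of mean-centred log2 CPM among 13858 named genes of at least 1 CPM. Closest to RUNX1 were AFAP1L2, CNN1 and HTRA3, at distances of 0.086, 0.115 and 0.116. CNN1 encodes the smooth muscle protein calponin. Closest to RUNX2 was BCL2L11, at 0.025, then CCDC144NL-AS1 and ZNF808 at 0.036 and 0.041. Closest to RUNX3 were TAF6, NFATC1 and PSKH1 (0.018, 0.024 and 0.026), and closest to CBFB were SFXN1, ATP5F1B and PPP1CC (0.019, 0.023 and 0.025). The fold changes of these genes lie close to those of the members they were matched to, from 3.94 to 3.99 for the RUNX2 set and from -1.11 to -1.09 for the CBFB set. This closeness follows from the matching itself, because the distance includes the difference between the groups.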

How the data were processed

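The authors deposited 1 table of estimated counts per gene for 6 RNA libraries, 3 per genotype. These came from kallisto 0.48.0, with hg38 as the build, per the submitters' processing notes. Annotation release, transcript-to-gene summing and filtering were not given in the sources used here. Oligo-dT enrichment preceded library preparation, per the labels' protocols. No strand-specific protocol is stated.

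Rounded counts went into edgeR 4.0.16 under R 4.3.3: filterByExpr (minimum count 10, minimum total 15), TMM factors, a robust quasi-likelihood fit with genotype as its only term, two-sided, and Benjamini-Hochberg adjustment over 28485 genes at 0.05. Variation between libraries was 7.53% (edgeR's biological coefficient of variation), part or all of which may be technical. A count of 3, the floor, is 0.00876 to 0.00995 CPM before TMM scaling, which covers counting error only. The steps were checked on simulated counts. Ratios were tested with scipy 1.17.1. Positions and promoters came from RefSeq, and exons, strands and transcript lengths from GENCODE 29, both on GRCh38. Symbols were matched exactly.

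The members and lists were chosen with earlier results of these data known. Named genes are the members, genes beginning with RUNX or CBFA2T, up to 4 genes of at least 1 CPM with the smallest adjusted p per list, the 3 genes most like each member, its neighbours, EWSR1 and FLI1. Genes named outside this rule (the Ewing sarcoma markers, YAP1, ALPL, SP7, BGLAP, IBSP, DMP1, MEPE, IHH, TNFSF11, FGFR2, FGFR3, VEGFA, COL10A1, GALNT3, MMP9, PTH1R, SPI1, IFNG, GZMB, ZBTB7B, CD8A, PRF1, TBX21, CD4, CCR7, SPP1, PHEX, HBA1, PTPRC and CD3E) were chosen after their values were seen. No pair of libraries of a genotype agreed within sampling noise (chi-square per degree of freedom 11.1 to 78.1). Alternatives were other scalings, filters and tests (DESeq2 1.42.0, limma 3.58.1), unrounded counts, a replicate term, leaving out each library, and subtracting the share that the 20 most depleted abundant genes keep in the other genotype. A gene that the rule names is not reported here.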

Additional observations from a re-analysis of the deposited data

How the results depend on the processing

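RUNX1, RUNX2 and CBFB kept their direction and passed under all 16 alternatives, with log2 fold changes from 6.92 to 8.86, from 3.55 to 4.08 and from -1.52 to -1.05. RUNX3 changed sign under 3: it was -0.392 with total counts only, -0.174 with upper quartile factors, both past the threshold, and -0.01 with at least 1 CPM required in 3 libraries. Leaving out each library in turn gave RUNX3 values from 0.006 to 0.089 with no call. The stricter filter tested fewer genes, and 6650 rose and 6975 fell, against 10328 and 10687. With total counts only, 33.0% of called genes were risen in place of 49.1%. The 48 alternative values of the 6 ratios kept their direction, which, with groups that do not overlap and p at its smallest, says nothing of stability.

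Replicate numbers are shared by the genotypes, but same-numbered libraries did not deviate together (r = -0.266, -0.0918 and -0.0106 over 11699 genes). Differently numbered libraries gave r from -0.318 to 0.293. These values are tied to each other, because each group was centred on its own mean. With a replicate block 10041 genes rose and 10377 fell, and RUNX1, RUNX2, RUNX3 and CBFB were at 7.35, 3.98, 0.03 and -1.09. Of 126 tested genes in the 7 lists 63 rose and 44 fell, and 59 and 44 with the block. That balance turned with total counts only (50 rose, 63 fell) and with upper quartile factors (53 rose, 55 fell). Depth limits genes near the floor, such as MEPE, IBSP and CLIC5. Estimated counts cannot separate isoforms or promoters.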
